A study of Saccharomyces cerevisiae with 4 samples.

Results

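The genes described here are 45 nuclear genes of Saccharomyces cerevisiae for proteins of the mitochondrial ribosome, all with MRPL, MRPS or MRP names. Some genes with such names, MRP21 and MRPS12 among them, are not in this set and are counted with further genes below. Of these, 35 encode proteins of the large subunit and 10 encode proteins of the small subunit. MRP7 and MRP20 were placed with the large subunit, where their proteins sit. The array table held 6207 genes, and 44 of the 45 members had a row in it; MRPL15 (YLR312W-A) had none and was not analysed here.

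The mitochondrial ribosome translates the few messages of the mitochondrial genome, most of which encode membrane subunits of the respiratory chain and of the ATP synthase. Almost all of its proteins are encoded in the nucleus, made in the cytosol and imported into the matrix, so their transcripts come from the same RNA pool as those of the cytoplasmic ribosome. Yeast needs this ribosome for respiration but not for growth on fermentable sugar, and many of these messages are bound by Puf3, a protein that controls nuclear transcripts for mitochondrial proteins. Part of the proteins are counterparts of bacterial ribosomal proteins and part are specific to mitochondria.

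RNA came from a mid2 mutant of the BY4741 background, a haploid laboratory strain. Mid2 is a sensor at the cell surface that feeds the cell wall integrity pathway, and every culture lacked it, the controls included. Cells grew in YEPD, a rich glucose medium, at 24 °C. Each culture was divided, 1 part received caspofungin, an echinocandin drug that inhibits synthesis of wall glucan, at 15 ng/ml, and the other part did not, and both were collected 2 h later. The comparison asks which transcripts of this mutant differ between the 2 parts. RNA of 2 cultures was hybridised to 4 2-colour arrays with swapped dyes. Per the labels, Cy3 marked the caspofungin RNA on arrays 1 and 3 and Cy5 marked it on arrays 2 and 4. Which 2 arrays belong to the same culture is not recorded there. Because all RNA is from 1 mutant strain, nothing here compares it with a strain that has Mid2.

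All values are log2 ratios as the authors deposited them, 1 per gene and array. A negative ratio is read as lower with caspofungin, but neither the labels nor the values settle that direction, so the text gives signs as deposited. If the ratios follow the dyes instead, the sign of arrays 1 and 3 has to be turned, and the medians and counts of the subunits under that reading are given as well. HIS3 and LEU2, disrupted in BY4741, had ratios that alternated with the dyes in both genes, negative on arrays 1 and 3 and positive on arrays 2 and 4. MID2 itself had no value on any array. Of 6 a-cell markers 5 had 4 values, while 0 of 4 alpha-cell markers and 1 of 4 sporulation markers did. The share of all genes was 47.1%. Blank on every array were 1 a-cell, 2 alpha-cell and 3 sporulation markers, beside 29.1% of all genes. The alpha-cell marker MF(ALPHA)2 had a value on 3 arrays. Over all genes the array medians were -0.10, -0.057, -0.22 and -0.072, so array 3 lay lowest.

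Values were present for more of the members than of the other genes. All 4 arrays gave a value for 27 of the 44 members with a row (61.4%), against 47.1% of all 6207 genes, and 4 members (9.09%) were blank throughout, against 29.1% of all genes. The 27 comprise 21 large subunit and 6 small subunit genes. On arrays 1 to 4 the members with a value numbered 30, 40, 31 and 34. The rule behind blank cells is not given in the sources used here, and the 4 blank members were MRPL4 (YLR439W), MRPL50 (YNR022C), MRP1 (YDR347W) and MRPS28 (YDR337W). MRPL4 and MRPS28 are counterparts of bacterial proteins, and MRP1 is a mitochondria-specific protein related to superoxide dismutases.

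All 27 members with 4 values had a negative mean ratio, and the differences were small. The means ran from -0.37 for MRPL13 to -0.059 for MRPS18, which is 1.29-fold to 1.04-fold on a linear scale. Among all 2925 genes with 4 values, 73% had a negative mean, and the median gene lay at -0.13. For each gene, limma tested whether the average of the culture means differed from 0, with p-values adjusted over all 2925 genes by the Benjamini-Hochberg method and a threshold of 0.05. None of the members passed (0 of 27), beside 0.0342% of all genes, and the lowest adjusted p of a member was 0.168, for MRPL51. At an unadjusted p under 0.05, 4 of the 27 members (14.8%) had a negative mean by limma, beside 18.5% of all genes. The share of members is thus close to that of the array as a whole. With only 2 cultures the test has little reach, and a p above the threshold does not show equal levels.

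**Figure D1:**
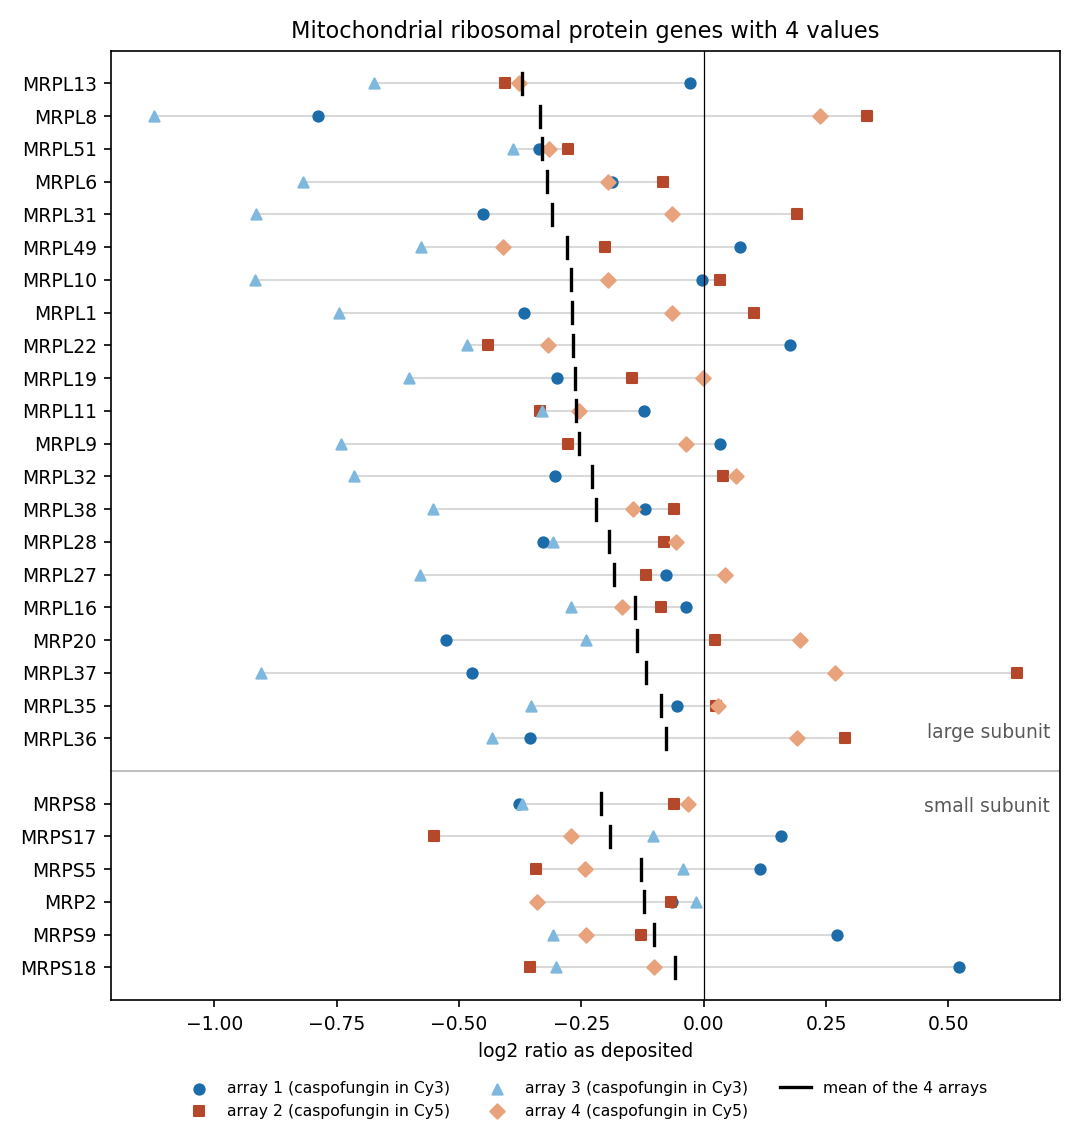
Log2 ratios as deposited (x axis) of the 27 mitochondrial ribosomal protein genes with 4 values (rows, large subunit above the line and small subunit below it), with 1 symbol per array and a black bar at the mean of the 4 arrays. All 27 bars lie left of 0, between -0.37 and -0.059, and array 3 is the lowest symbol in 18 of the 21 large subunit genes, beside 41.8% of all genes.

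The sign of the means depends on where the zero of each array was set. With each array centred on its median, 23 of the 27 members had a negative mean and 4 a positive one (MRPL35, MRPL36, MRPS9 and MRPS18), beside 53.8% of all genes with a negative mean. Ratios below the array median on all 4 arrays were found in 4 of 27 members, MRPL6, MRPL11, MRPL38 and MRPL51, or 14.8%, beside 8.72% of all genes. As deposited, 10 of 27 members had 4 negative ratios (37.0%), a pattern of 19.3% of all genes, and 0 of 27 had 4 positive ones, a pattern of 6.87%. At an unadjusted p under 0.05 after centring, 0 of 27 members had a negative mean by limma, beside 7.86% of all genes.

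MRPL51 (YPR100W), the gene of a mitochondria-specific large subunit protein, had the most even ratios of the set. It read -0.34, -0.28, -0.39 and -0.32 on arrays 1 to 4, a mean of -0.33 ± 0.047 (SD, n = 4 arrays of 2 cultures, as for all SDs below). Every array lay below the median of the other genes, and the 4 values lay closer together than in any other of the 27 members. MRPL11 (YDL202W), whose protein is the counterpart of the bacterial protein at the base of the factor-binding stalk, was less even but also negative throughout. It read -0.12, -0.33, -0.33 and -0.26, with a mean of -0.26 ± 0.10 (limma, adjusted p = 0.191). MRPL19 (YNL185C), a neighbour of it at the stalk base, read -0.30, -0.15, -0.60 and -0.00058, so array 4 was at 0 while array 3 was low.

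MRPL13 (YKR006C), also specific to mitochondria, had the lowest mean of the 27. Its ratios were -0.029, -0.41, -0.67 and -0.38, with a mean of -0.37 ± 0.26 (limma, adjusted p = 0.186). Array 1 stood near 0 and the other 3 arrays were low, so its sign was the same on all 4 arrays but the size was not. MRPL49 (YJL096W), a counterpart of a bacterial protein, also had array 1 highest and array 3 lowest, with 0.074, -0.20, -0.58 and -0.41 and a mean of -0.28 ± 0.28. MRPL22 (YNL177C), whose bacterial counterpart lines the exit tunnel for the growing chain, read 0.18, -0.44, -0.48 and -0.32. In both genes array 1 was the only positive array.

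MRPL6 (YHR147C), a counterpart of a bacterial protein, read -0.19, -0.083, -0.82 and -0.19, with a mean of -0.32 ± 0.34. Here array 3 stood apart from 3 arrays that lay close together. MRPL10 (YNL284C) had -0.0032, 0.034, -0.92 and -0.19 and MRPL9 (YGR220C) had 0.034, -0.28, -0.74 and -0.037; both encode counterparts of bacterial proteins. Their means, -0.27 ± 0.44 and -0.26 ± 0.35, were mostly carried by array 3. MRPL38 (YKL170W) had -0.12, -0.061, -0.55 and -0.15, again with array 3 lowest and all 4 arrays negative.

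In a further set of large subunit genes the sign turned with the dyes. MRPL8 (YJL063C), a counterpart of a bacterial protein, read -0.79, 0.33, -1.12 and 0.24 on arrays 1 to 4. Its mean of -0.33 ± 0.73 was close to that of MRPL51, although no array lay near that mean. MRPL37 (YBR268W), specific to mitochondria, read -0.47, 0.64, -0.90 and 0.27 (mean -0.12 ± 0.70). MRPL36 (YBR122C), whose bacterial counterpart sits at the contact between the subunits, read -0.36, 0.29, -0.43 and 0.19 (mean -0.077 ± 0.37). In these 3 genes both arrays of each dye orientation lay on the same side of 0.

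MRP20 (YDR405W), whose bacterial counterpart surrounds the mouth of the exit tunnel, read -0.53, 0.023, -0.24 and 0.20 (mean -0.14 ± 0.32). MRPL32 (YCR003W), known as a substrate of the m-AAA protease of the inner membrane, read -0.30, 0.040, -0.72 and 0.065, and MRPL35 (YDR322W), a protein of the central protuberance, read -0.055, 0.026, -0.35 and 0.030. These 6 large subunit genes were the members whose signs followed the dyes, negative on arrays 1 and 3. That is 22.2% of the 27, beside 19.7% of all genes. The opposite alternation was seen in 0 of 27 members, beside 13.4% of all genes.

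The remaining large subunit genes with 4 values lay between these patterns. MRPL31 (YKL138C), specific to mitochondria, read -0.45, 0.19, -0.91 and -0.065, and MRPL1 (YDR116C), the counterpart of the bacterial protein of the mobile stalk beside the tRNA exit site, read -0.37, 0.10, -0.75 and -0.064. In both, array 2 was the only positive array. MRPL27 (YBR282W) read -0.077, -0.12, -0.58 and 0.043, and MRPL28 (YDR462W), a protein of the central protuberance, read -0.33, -0.08, -0.31 and -0.056. MRPL16 (YBL038W), whose bacterial counterpart lies near the bound tRNAs, had some of the smallest ratios, with -0.037, -0.088, -0.27 and -0.17 and a mean of -0.14 ± 0.10. The 7 mitochondria-specific and the 14 bacterial-type large subunit genes had medians of -0.19 and -0.26. The difference between these medians was not tested. Turned by the dye labels the medians are 0.13 and 0.19.

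The small subunit genes lay closer to the other genes in their mean over the 4 arrays, though not on arrays 1, 2 and 4 taken singly. MRPS8 (YMR158W) had the lowest mean, with -0.38, -0.06, -0.37 and -0.032 on arrays 1 to 4 and a mean of -0.21 ± 0.19 (limma, adjusted p = 0.235). MRPS17 (YMR188C) read 0.16, -0.55, -0.10 and -0.27, with a mean of -0.19 ± 0.30. The bacterial counterparts of both bind the small subunit RNA early in assembly, but the order of the arrays differed: MRPS8 was lowest on arrays 1 and 3, MRPS17 on arrays 2 and 4.

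MRPS18 (YNL306W) and MRPS9 (YBR146W) had the highest small subunit means. MRPS18 read 0.52, -0.36, -0.30 and -0.10 (mean -0.059 ± 0.40), and MRPS9 read 0.27, -0.13, -0.31 and -0.24 (mean -0.10 ± 0.26). In both, array 1 was positive and the other arrays negative. MRPS5 (YBR251W), the counterpart of a bacterial protein at the entry path of the message, read 0.11, -0.34, -0.042 and -0.24. MRP2 (YPR166C) read -0.065, -0.067, -0.017 and -0.34, so its mean of -0.12 ± 0.15 was carried by array 4.

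As a group, the 21 large subunit genes had a median mean of -0.26 and the 6 small subunit genes of -0.13, beside -0.13 for the 2898 genes that are no members. Of the large subunit genes, 18 of 21 lay below the median of the other genes, and of the small subunit genes 2 of 6. The subunit difference was not even across arrays. Large subunit medians less that of the other genes were -0.087, -0.024, -0.36 and 0.0083 on arrays 1 to 4. On array 3 all 21 genes lay below the other genes' median, while on array 4 only 9 of 21 did. Without array 3 the large subunit lay -0.014 from the other genes, against -0.13 with all 4 arrays, and without array 2 it lay at -0.17. The shift of the large subunit relative to other genes therefore rested largely on array 3. That array had the lowest median and the widest spread of all genes (SD between genes 0.64, against 0.41 to 0.50 on the other arrays). The shift was -0.13 with arrays centred on their medians and -0.11 with arrays also scaled to the same spread. With an array left out, the dye orientations are no longer balanced. A difference between array 3 and the others in hybridisation or culture was not tested.

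**Figure D2:**
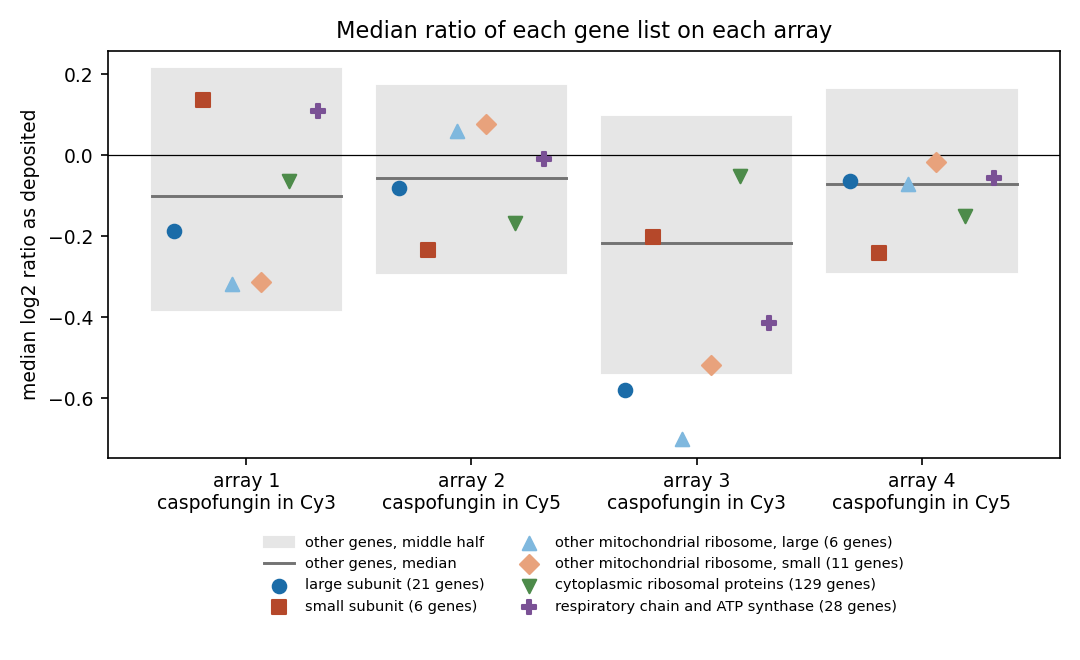
Median log2 ratio as deposited (y axis) of 6 gene lists on each array (x axis), with a grey box from the lower to the upper quartile and a grey line at the median of the genes that are no members. The large subunit median lies at -0.58 on array 3, below the box, and between -0.19 and -0.064 on the other arrays, while the small subunit is highest on array 1 at 0.14.

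Small subunit medians less that of the other genes were 0.24, -0.18, 0.014 and -0.17, so their sign turned between arrays. The mean over arrays left a difference of 0.0034, and without array 1 it was -0.084, where 6 of 6 genes lay below the other genes' median. Large less small subunit medians were -0.32, 0.15, -0.38 and 0.18 on arrays 1 to 4. Among the members, with only 6 small subunit genes, the subunits thus stood in opposite order in the 2 dye orientations. That change of order was not seen in the further genes of this ribosome, described below. From the means over arrays the difference was -0.14, smaller than its SD of 0.30 between arrays, and it became -0.032 when array 1 was left out, -0.22 when array 2 was, and 0.048 when array 3 was. If the values are turned by the dye labels, the difference is 0.27, with the large subunit 0.097 above and the small subunit -0.17 from the other genes.

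The dye part of a gene is taken here as the mean of arrays 2 and 4 less the mean of arrays 1 and 3, divided by 2. It was positive in 17 of 21 large subunit genes and negative in 5 of 6 small subunit genes, MRPS8 being the exception, beside 55.9% of all genes with a positive and 44.1% with a negative dye part. The medians were 0.15 and -0.12, beside 0.049 for the other genes. MRPL8 (0.62), MRPL37 (0.57), MRPL31 (0.37) and MRPL36 (0.32) had the largest dye parts of the 27, and MRPS17 (-0.22) the lowest. The dye parts of the 27 members spanned a wider range than their means, as the plot of both shows. Over all genes, too, the quartiles lay further apart for the dye part (-0.16 and 0.25) than for the mean (-0.25 and 0.013).

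**Figure D3:**
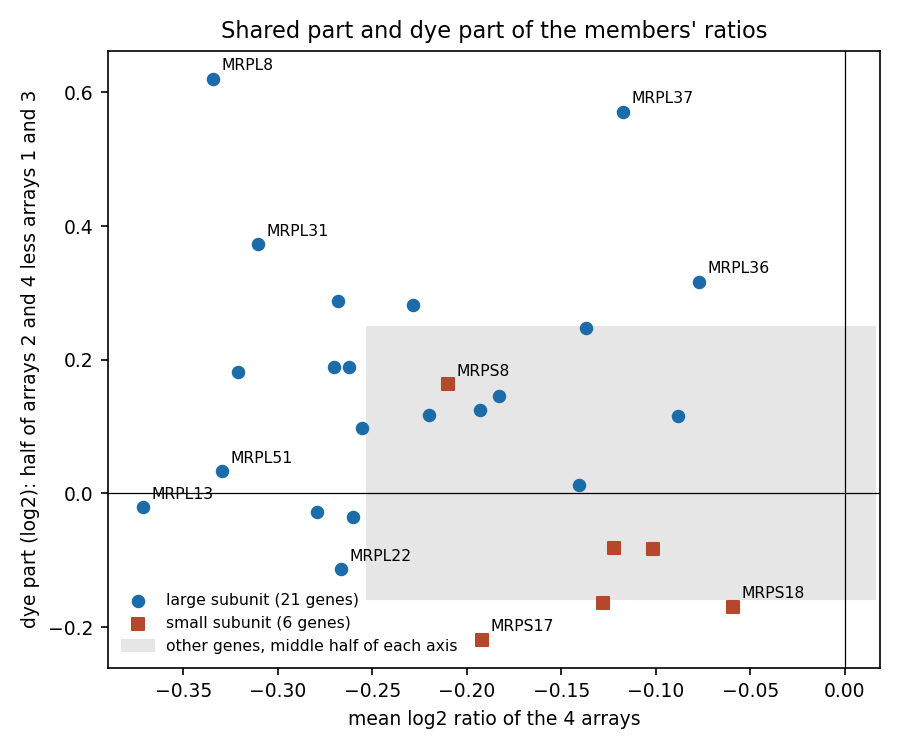
Mean log2 ratio of the 4 arrays (x axis) against the dye part in log2 (y axis) for the 27 members with 4 values, 1 point per gene, with a grey box from the lower to the upper quartile of the other genes on each axis. The x values stay between -0.37 and -0.059, while the y values run from -0.22 for MRPS17 to 0.62 for MRPL8.

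Among the members, differences from gene to gene repeated within a dye orientation, more weakly on arrays 1 and 3, and not across it. Over the 27 genes Pearson's r was 0.46 between arrays 1 and 3 and 0.75 between arrays 2 and 4. Between arrays of opposite orientation it ran from -0.70 to -0.37. Within the 21 large subunit genes alone, Pearson's r was 0.30 between arrays 1 and 3 and 0.79 between arrays 2 and 4. Spearman's rank correlation of arrays 1 and 3 was 0.14 in those 21 genes. Over the 2898 other genes Pearson's r was 0.66 and 0.79 within orientations and ran from -0.15 to 0.14 across them. Spearman's rank correlation across orientations was negative for the other genes as well, from -0.33 to -0.12, beside -0.74 to -0.31 for the members. These are descriptions across genes that share arrays and dyes, and no p is given. The means of the members were also close together, with an SD between genes of 0.088, against 0.33 for all genes. Their quartiles were -0.27 and -0.13, against -0.25 and 0.013 for all genes. Such an SD was not particular to the members. It was 0.095 and 0.13 in the further large and small subunit genes described below, and 0.10 in the genes of cytoplasmic ribosomal proteins.

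Members with fewer than 4 values were not tested. MRPL40 (YPL173W), whose bacterial counterpart lies near the exit tunnel, had the lowest mean of the 13 such genes and read -0.084, -1.38 and -0.26 on arrays 2, 3 and 4. MRPL24 (YMR193W) read -0.38, -0.45 and -0.51 on arrays 1, 2 and 4, the most even of those with 3 values (mean -0.45 ± 0.069, n = 3). MRP7 (YNL005C), whose bacterial counterpart reaches toward the peptidyl transferase centre, read -0.28 and -0.47 on arrays 2 and 4.

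MRPL44 (YMR225C) read -0.33, -0.25 and -0.075 on arrays 1, 2 and 4, and MRPL23 (YOR150W) read -0.45, -0.0030 and 0.084 there. MRPL25 (YGR076C) read -0.030, -0.71 and 0.060 on arrays 2, 3 and 4, and MRPL7 (YDR237W), whose bacterial counterpart belongs to the central protuberance, read -0.19, 0.10 and 0.013. The last was the only member with a positive value on array 3. MRP4 (YHL004W), a small subunit gene, read 0.13 on array 2 and -0.67 on array 3.

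Array 2, which gave a value for all 40 members that had any, was the single source for 5 genes. These were MRPL20 (YKR085C) at -0.49, MRPL17 (YNL252C) at -0.46, MRPL3 (YMR024W) at -0.36, MRPL33 (YMR286W) at -0.13 and the small subunit gene MRPS16 (YPL013C) at 0.091. MRPL3 and MRPL17 are mitochondria-specific, the first with a fold related to RNase III. MRPS16 was the only one of the 40 with a positive mean, and it rests on 1 array.

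Other genes of the mitochondrial ribosome, which carry other names, showed ratios of similar size. Of 10 further large subunit genes 6 had 4 values, with a median of -0.19 (0.23 turned by the dye labels), and of 25 further small subunit genes 11 did, with a median of -0.17 (0.20 turned). All 17 had negative means, beside 73% of all genes. None passed the test (0 of 17, limma, lowest adjusted p = 0.181), beside 0.0342% of all genes. At an unadjusted p under 0.05 by limma, 1 of the 6 and 3 of the 11 had a negative mean, beside 18.5% of all genes. IMG2 and RML2 were the lowest and the highest of the large group, at -0.39 ± 0.20 and -0.11 ± 0.19, and MRP21 and RSM19 those of the small group, at -0.42 ± 0.54 and -0.0075 ± 0.32. Unlike the 6 small subunit members, the 11 further small subunit genes had a positive median dye part, 0.20, and array medians of -0.31, 0.077, -0.52 and -0.017. As in the large subunit members, arrays 1 and 3 had the lower medians. The difference of the further large less small subunit medians was -0.020 from the means over arrays. On arrays 1 to 4 it was -0.0070, -0.017, -0.18 and -0.053, so the order did not change with the dyes as it did among the members. One listed gene, YMR31, is named KGD4 in the RefSeq table and is now known as a part of the 2-oxoglutarate dehydrogenase complex.

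The wider machinery of mitochondrial translation was little measured. Of 15 translation and assembly factors 3 had 4 values, led by MBA1, which binds the ribosome to the inner membrane (-0.34 ± 0.40). OXA1, the insertase for newly made mitochondrial proteins, followed the dyes, with -0.79 (array 1), 0.63 (array 2), -1.10 (array 3) and 0.77 (array 4). Of 13 mitochondrial tRNA synthetases 1 had 4 values, SLM5 (-0.22 ± 0.50). Of 11 translational activators 3 did: PET54 was lowest at -0.66 ± 0.46 and MSS51, an activator of COX1 translation, highest at 0.17 ± 0.17. None of these 7 genes passed the test (0 of 7, limma, lowest adjusted p = 0.173), beside 0.0342% of all genes. At an unadjusted p under 0.05 by limma, 2 of them had a negative mean, beside 18.5% of all genes.

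Lists that share the products or the form of this ribosome were set beside it as well. The 28 measured genes of the respiratory chain and ATP synthase, subunits and assembly factors together, had a median mean of -0.058. That is 0.070 above the other genes. Of their means, 20 of 28 were negative, beside 73% of all genes. Turned by the dye labels, 9 of 28 are negative, beside 44.1% of all genes, so the majority changes side. CYC1, for cytochrome c isoform 1, was lowest at -0.64 ± 0.26, and COR1, for a core subunit of the cytochrome bc1 complex, highest at 0.24 ± 0.063. The 129 measured genes of cytoplasmic ribosomal proteins had a median of -0.11, which is 0.016 above the other genes, and their median dye part was -0.048. RPL23B was lowest at -0.31 ± 0.38 and RPL15A highest at 0.23 ± 0.38; both have close paralogs, whose signals an array may not separate. On array 3 their median was -0.051, while that of the mitochondrial large subunit was -0.58. On arrays 2 and 4 the order was turned, with -0.17 and -0.15 for the cytoplasmic and -0.080 and -0.064 for the mitochondrial genes. No gene of either list passed the test (0 genes, limma, lowest adjusted p = 0.163), beside 0.0342% of all genes. At an unadjusted p under 0.05 by limma, 1 of 28 and 6 of 129 had a negative mean, beside 18.5% of all genes. The difference between lists was not tested.

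Treating the 4 arrays as replicates with a dye term, which takes the arrays of a culture as independent, also called 0 of the 27 members (limma, lowest adjusted p = 0.0692, for MRPL51). There, 9 of 27 members had a negative mean at an unadjusted p under 0.05 by limma (33.3%), beside 25.4% of all genes. Under the reading turned by the dye labels 0 of 27 passed as well (limma, lowest adjusted p = 0.0763, for MRPL8), with 18 of the 27 means positive and 9 negative, beside 55.9% of all genes positive.

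**Figure D4:**
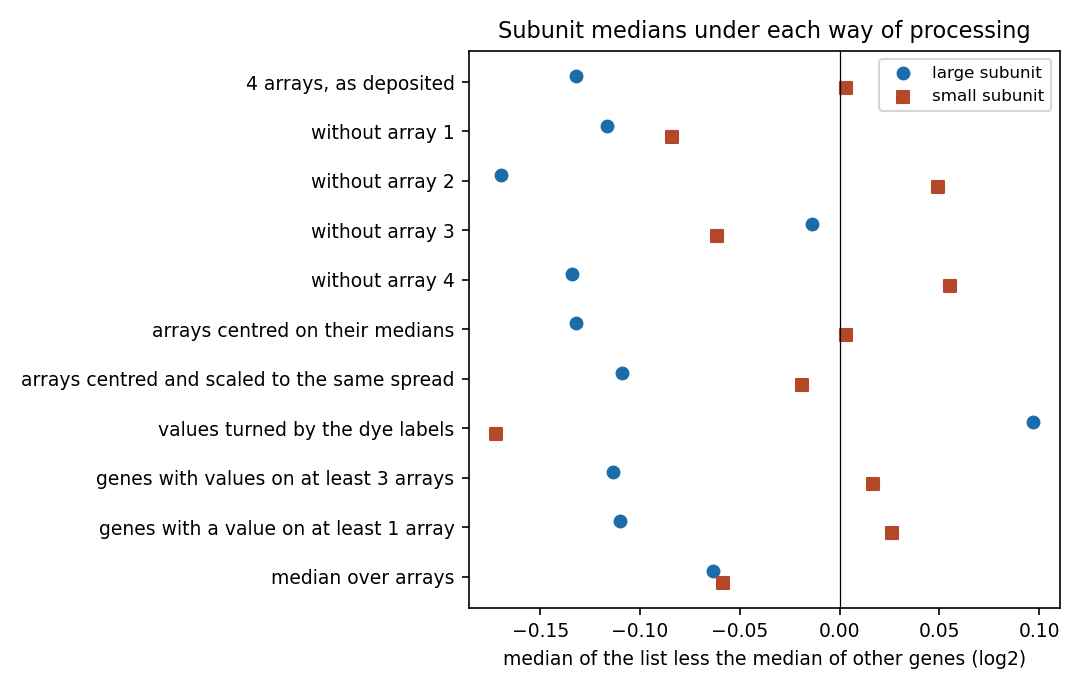
Median of the gene means of each subunit less the median of the genes that are no members, in log2 (x axis), for the deposited values of 4 arrays and for 10 other ways of processing (rows). The large subunit lies between -0.17 and -0.014 except for values turned by the dye labels, where it is 0.097, and the small subunit lies between -0.17 and 0.055.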

How the data were processed

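The values are log2 ratios of 2-colour arrays, 1 per gene and array, as deposited by the authors; the table names no unit, and base 2 was read from the values, since 2 raised to each gave a number with 4 decimals for 100% of them (tolerance 1e-06). For scanner software, background correction, normalization, the rule for blank cells and the build, the answer is not given in the sources used here. Scale, centring and direction stay unknown, and the number of arrays limits the precision. Names are those of RefSeq (assembly R64), whose table matched 5654 of 6207 genes and all 45 members. The 2 control rows were left out, and 0 columns of values went unused.

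Genes with 4 values were tested with limma 3.58.1 in R 4.3.3. Arrays were averaged into 2 cultures in both pairings that join opposite dye orientations, the larger p was kept, and p-values were adjusted over all genes by the Benjamini-Hochberg method; the code was tested on simulated data. That the 2 cultures were separate comes from the labels. Lists are described by counts and medians only. Values on every array were to be given for the 6 highest and 6 lowest large subunit means, the 2 highest and 2 lowest small subunit means and the 4 largest dye parts; the others were added after their values were seen, as were the notes on protein sites. The members and lists were chosen with earlier results of these data known. Alternatives were the pairing, leaving out each array, centring, scaling, turning by the dye labels, other filters on blanks, medians over arrays, another subunit split and arrays as replicates. No sequences were used here.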

Additional observations from a re-analysis of the deposited data

Results flagged for a closer look

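In 2 of the 27 members with 4 values, 1 array lay far from the other 3 by Dixon's ratio, the gap to the nearest value over the whole range. For MRPL6 the ratio was 0.849, from the value of -0.82 on array 3 beside -0.19, -0.083 and -0.19. For MRP2 it was 0.844, from -0.34 on array 4 beside -0.065, -0.067 and -0.017. Chance alone puts about 1 in 20 genes past the critical value, and 4.48% of all genes measured on 4 arrays exceeded it.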

How the results depend on the processing

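No member passed under any of the 11 other fits (0 of 27 in each, or 0 of 33 with genes on at least 3 arrays). The count over all genes, 1 as reported, was 10 with arrays centred, 48 with arrays also scaled, 0 with values turned by the dye labels, 0 with genes on at least 3 arrays, 148 with arrays 1 and 4, and 2 and 3, as cultures, 109 with the 4 arrays as replicates, and 1 to 61 with an array left out (61 without array 1, 56 without array 3). Members negative on all arrays, 10 as reported, were 4 with arrays centred, 0 turned by the dye labels and 10 to 17 with an array left out; members positive on all arrays were 6 turned. The large subunit median less that of other genes kept its sign and stayed within the spread between arrays except when turned (0.097, against -0.13). Large less small subunit was 0.27 turned, -0.22 to 0.048 with an array left out, and -0.005 by medians over arrays.

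Among the 16 genes named by the rule, 11 means changed sign when turned: MRPL6 0.18, MRPL8 0.62, MRPL16 0.013, MRPL27 0.15, MRPL31 0.37, MRPL35 0.12, MRPL36 0.32, MRPL37 0.57, MRPL51 0.033, MRP20 0.25 and MRPS8 0.16. Centring changed the sign of MRPL35 (0.025), MRPL36 (0.036), MRPS9 (0.012) and MRPS18 (0.054), and scaling that of MRPL35 (0.037), MRPL36 (0.076), MRPL37 (0.075), MRP20 (0.0034) and MRPS18 (0.029). With an array left out, the mean of MRPL35 ran from -0.13 to 0.00035, of MRPL36 from -0.20 to 0.041, of MRPL37 from -0.37 to 0.14 and of MRPS18 from -0.25 to 0.040. The cause was not tested; the dye part does not cancel in 3 arrays. Each ratio already pairs both parts of 1 culture, and the comparison has 1 group, so there is no further block by replicate number.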
